A study of Mus musculus with 8 samples.

Results

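Cxcl9, Cxcl10, Ccl3, Ccl4, Ccl5 and Cxcr6 were followed across 8 mouse tumors. They are 5 chemokines that draw T cells into tissue and 1 chemokine receptor of activated T cells. The members were chosen by symbol from the authors' deposited table of 752 genes, and all 6 symbols were found, once each. The tumors were grown under the skin of germ-free C57B/L6 mice from MC38, a colon adenocarcinoma cell line of that strain, and dissected on day 23. Tumors 11, 17, 18 and 19 came from mice given an antibody against PD-1, an inhibitory receptor of activated T cells, by intraperitoneal injection. Tumors 36, 37, 39 and 40 came from mice given that antibody and, by gavage, the anaerobic bacterium Fusobacterium nucleatum ATCC-25586. Both groups shared the wild-type genotype, the germ-free host, the cell line and the antibody. No group without the antibody was analysed here, and the labels give no sex, age, dose or number of mice. The study set out to learn how F. nucleatum affects this therapy.

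Chemokines are small secreted proteins that bind receptors on leukocytes and set the direction in which these cells move. Cxcl9 and Cxcl10 bind Cxcr3 on activated T cells and NK cells. Macrophages, dendritic cells and stromal cells make them in response to interferons. Cxcl9 depends mainly on interferon-gamma, whereas Cxcl10 also responds to type I interferon and to inflammatory signals through NF-kB. Activated T cells and NK cells make Ccl3, Ccl4 and Ccl5, and myeloid cells also make Ccl3 and Ccl4. Cxcr6 marks activated and tissue-resident T cells and binds Cxcl16.

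The table holds selected genes. Every one of the 752 had an unadjusted p of at most 0.04995 and an absolute log2 difference of at least 1.001 in the authors' deposited table, so each member had to differ between the groups to be listed. The direction of a member's difference is therefore a description here. The limma and permutation p-values, adjusted or not, were computed on genes selected for differing in this same comparison. They too are descriptions and not error rates. What the selection did not fix is the value of each tumor, the order of the members, the ratios between them and their relation to other listed genes.

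The 250 bases before the RefSeq start (GRCm38.p6) are shown for 3 chemokines, because the first pair are the interferon-induced genes and parted from each other in the tumors, while Ccl3 is the lymphocyte-made gene whose window the reference table held. RefSeq windows were found for 4 of the 6 members. Capitals mark matches, on either strand, to GAAANNGAA (the core of an interferon-stimulated response element) or GGNNNTTCC (a form of the NF-kB site).

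Cxcl9, chr5:92328080-92328329, minus strand: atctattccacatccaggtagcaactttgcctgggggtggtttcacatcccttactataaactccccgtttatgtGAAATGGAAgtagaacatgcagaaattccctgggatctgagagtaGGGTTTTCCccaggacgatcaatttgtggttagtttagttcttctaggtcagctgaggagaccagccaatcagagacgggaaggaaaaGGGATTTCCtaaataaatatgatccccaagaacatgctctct

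Cxcl10, chr5:92348890-92349139, minus strand: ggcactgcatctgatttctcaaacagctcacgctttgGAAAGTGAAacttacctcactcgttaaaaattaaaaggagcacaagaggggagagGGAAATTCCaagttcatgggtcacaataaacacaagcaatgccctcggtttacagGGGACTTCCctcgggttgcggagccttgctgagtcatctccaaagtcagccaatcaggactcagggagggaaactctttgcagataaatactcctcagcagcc

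Ccl3, chr11:83649379-83649628, minus strand: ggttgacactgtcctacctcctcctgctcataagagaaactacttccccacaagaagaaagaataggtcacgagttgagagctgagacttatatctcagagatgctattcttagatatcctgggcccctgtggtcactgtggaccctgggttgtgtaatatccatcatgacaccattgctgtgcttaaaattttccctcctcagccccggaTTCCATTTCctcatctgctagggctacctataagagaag

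In the Cxcl9 window GAAANNGAA matched from 175 to 167 bases before the start, and GGNNNTTCC from 130 to 122 and from 42 to 34. In the Cxcl10 window GAAANNGAA matched from 213 to 205, and GGNNNTTCC from 158 to 150, where it matched on both strands, and from 103 to 95. The Ccl3 window held 1 match to GAAANNGAA, on the opposite strand from 39 to 31, and none to GGNNNTTCC. The Cxcr6 window held neither. The motif TTCNNNGAA (the gamma-interferon activation site), matched in 0 of the 4 windows. Among all 32851 RefSeq windows of this length, 7.13% held GAAANNGAA, 7.02% TTCNNNGAA and 15.7% GGNNNTTCC. A match describes letters and is not evidence of a bound factor.

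Cxcl9 (ENSMUSG00000029417, chromosome 5, 92321347 to 92328079, GRCm38, protein-coding) had the largest difference of the 6. Its normalized counts were 1056, 5622, 4649 and 1075 in anti-PD-1 tumors 11, 17, 18 and 19. They were 1745, 67.2, 179.0 and 71.9 in F. nucleatum tumors 36, 37, 39 and 40. Tumor 36 lay above tumors 11 and 19, so the groups overlapped, while the other 3 F. nucleatum tumors lay far below every anti-PD-1 tumor. The means were 3101 ± 2384 and 515.7 ± 821.0 (SD, n = 4 each). On the log2 scale the difference, F. nucleatum minus anti-PD-1 alone, was -3.55 ± 0.999 (SE), with an adjusted p of 0.0932 by limma over all 752 genes and an exact permutation p of 0.0857.

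Cxcl10 (ENSMUSG00000034855, chromosome 5, 92346638 to 92348889, protein-coding) lies 18.6 kb from Cxcl9. It had normalized counts of 795, 2321, 2045 and 629 in tumors 11, 17, 18 and 19, and of 1023, 704, 252 and 349.8 in tumors 36, 37, 39 and 40. Tumors 36 and 37 lay between the lowest and highest anti-PD-1 tumor, and tumors 39 and 40 lower. The log2 difference was -1.30 ± 0.59 (SE, adjusted p = 0.116 by limma, exact permutation p = 0.143).

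The order of the anti-PD-1 tumors was nearly the same for both genes, with tumors 17 and 18 high and tumors 11 and 19 low. The F. nucleatum tumors parted the genes. Cxcl9 exceeded Cxcl10 in all 4 anti-PD-1 tumors, at 1.33 to 2.42 times its normalized count. In tumor 36 this ratio was 1.71, within that range, and in tumors 39, 40 and 37 it was 0.709, 0.205 and 0.0956. Tumor 37 thus had a Cxcl10 count like that of an anti-PD-1 tumor beside the lowest Cxcl9 count of all 8. The log2 ratio of Cxcl9 to Cxcl10 was 0.91 ± 0.40 with anti-PD-1 alone and -1.34 ± 1.84 in the F. nucleatum tumors (SD, n = 4 each). The groups overlapped through tumor 36. Scaled to transcript length as FPKM, Cxcl9 was 0.993 to 1.81 times Cxcl10 in the anti-PD-1 tumors, the lowest being tumor 11, where Cxcl10 was ahead.

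**Figure D1:**
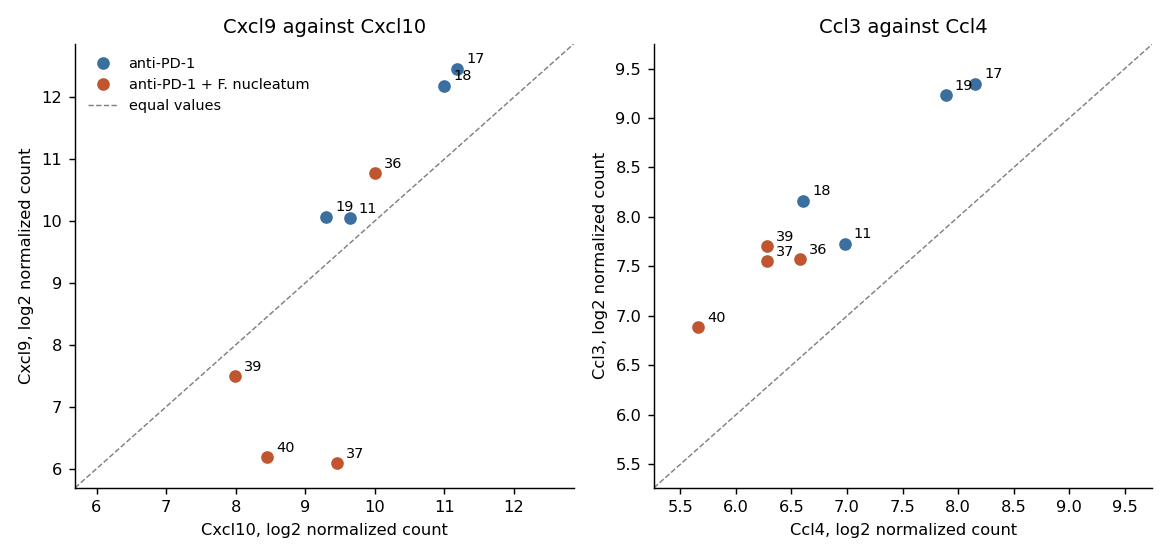
Log2 normalized counts of Cxcl9 against Cxcl10 (left) and of Ccl3 against Ccl4 (right), 1 point per tumor with its number, blue for anti-PD-1 and orange for anti-PD-1 with F. nucleatum; the dashed line marks equal values. Tumors 37, 39 and 40 lie below the line for Cxcl9, whereas all 8 tumors lie on 1 side of it for Ccl3.

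Ccl3 (ENSMUSG00000000982, chromosome 11, 83647844 to 83649355, protein-coding) had normalized counts of 211, 651, 286 and 600.1 in tumors 11, 17, 18 and 19. With F. nucleatum it had 189, 187, 207 and 117 in tumors 36, 37, 39 and 40. No value overlapped, but tumor 11 and tumor 39 lay close together. The log2 difference was -1.19 ± 0.50 (SE, adjusted p = 0.107 by limma, exact permutation p = 0.0286). With 70 ways to arrange the tumors no smaller p is possible.

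Ccl4 (ENSMUSG00000018930, chromosome 11, 83662584 to 83664683, protein-coding) lies 13.2 kb from Ccl3 on the other strand. Its normalized counts were 125, 284, 96.5 and 236 in the anti-PD-1 tumors and 94.7, 76.5, 76.6 and 49.7 in the F. nucleatum tumors, in the same tumor order. Tumors 18 and 36 bounded the groups and were nearly equal, and in FPKM (a level scaled to transcript length and library size) tumor 36 passed tumor 18, at 2.31 against 2.24. The log2 difference was -1.21 ± 0.51 (SE, adjusted p = 0.108 by limma, exact permutation p = 0.0286). Ccl3 and Ccl4 kept 1 ratio in both groups. The log2 ratio of Ccl3 to Ccl4 was 1.21 ± 0.34 in the anti-PD-1 tumors and 1.23 ± 0.18 in the F. nucleatum tumors (SD, n = 4 each).

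Ccl5 (ENSMUSG00000035042, chromosome 11, 83525778 to 83530518, protein-coding) had normalized counts of 299, 402, 198 and 100.2 in tumors 11, 17, 18 and 19. In tumors 36, 37, 39 and 40 it had 126, 49.8, 46.0 and 23.3. Tumor 36 lay above tumor 19, the only overlap. The log2 difference was -2.09 ± 0.63 (SE, adjusted p = 0.0932 by limma, exact permutation p = 0.0571). Ccl5 did not share the tumor order of Ccl3 and Ccl4: tumor 19, the second highest for those genes, was the lowest anti-PD-1 tumor for Ccl5. The value of tumor 40 rests on 22 reads, with an exact 95% Poisson interval of 13.8 to 33.3 that covers counting error only.

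Cxcr6 (ENSMUSG00000048521, chromosome 9, 123806475 to 123811760, protein-coding) was the least abundant member and separated the groups most cleanly. Its normalized counts were 72.7, 115, 88.4 and 47.3 in tumors 11, 17, 18 and 19 and 28.1, 17.4, 12.9 and 23.3 in tumors 36, 37, 39 and 40. The groups did not overlap in normalized counts or in FPKM. The log2 difference was -1.92 ± 0.54 (SE, adjusted p = 0.0932 by limma, exact permutation p = 0.0286). Recovered reads were 60 to 87 in the anti-PD-1 tumors and 15 to 35 in the F. nucleatum tumors, and the 15 reads of tumor 37 have an exact Poisson interval of 8.40 to 24.7.

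**Figure D2:**
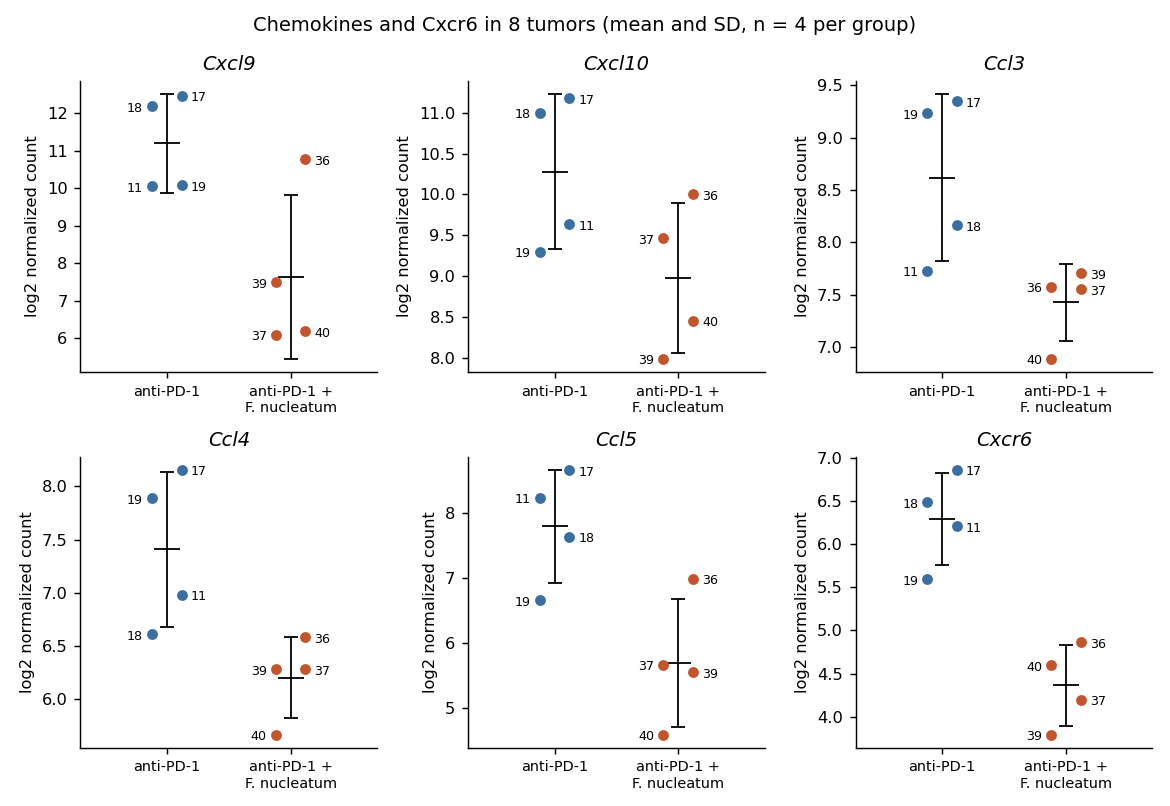
Log2 normalized count of each member (vertical axes, each with its own range) in the 2 groups, 1 labelled point per tumor, with mean and SD as black bars (n = 4). Tumor 17 is the highest anti-PD-1 tumor in all 6 panels, and tumor 36 is the highest F. nucleatum tumor in 5 of them, Ccl3 being the exception.

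All 6 members had lower means with F. nucleatum, as did 353 of the 752 listed genes. By limma 0 of the 6 had an adjusted p under 0.05, and neither had any other gene of the table (0% of 752 genes lower and called). An unadjusted limma p under 0.05 was reached by 5 of the 6, Cxcl10 being the exception at 0.0503. It was also reached by 207 of the 353 lower genes, or 27.5% of the table. The exact permutation test and voom on recovered reads also called none after adjustment. The authors' deposited table gave 2 of the 6 an FDR under 0.05, Cxcr6 at 0.00125 and Ccl5 at 0.0224. It did so for 47 of the 353 lower genes, or 6.25% of the table. The authors' FDR was 0.0509 for Ccl3, 0.119 for Ccl4, 0.934 for Cxcl9 and 0.991 for Cxcl10. Every deposited p was at most 0.04995, so Benjamini-Hochberg over these 752 genes alone would keep every FDR under 0.05. The authors' FDRs thus do not rest on that adjustment, and they cannot be set directly against the adjusted p-values of limma. Groups did not overlap in 3 of the 6 (Ccl3, Ccl4 and Cxcr6), against 12.4% of all listed genes and 26.3% of the lower ones. In FPKM 2 of the 6 did not overlap. Without tumor 36, a choice made after its values were seen, 5 of the 6 did not overlap, nor did 26.2% of the table in this direction. That share and the next are over all 752 genes, of which 399 had higher means with all tumors. Shares of the lower genes alone were not worked out without tumor 36. The limma calls also depended on tumor 36. Without it Cxcl9 (-4.60, adjusted p = 0.0186), Ccl5 (-2.52, adjusted p = 0.0280) and Cxcr6 (-2.08, adjusted p = 0.0217) fell under 0.05 in limma over these selected genes. In that fit 16.9% of the table was called in the lower direction.

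**Figure D3:**
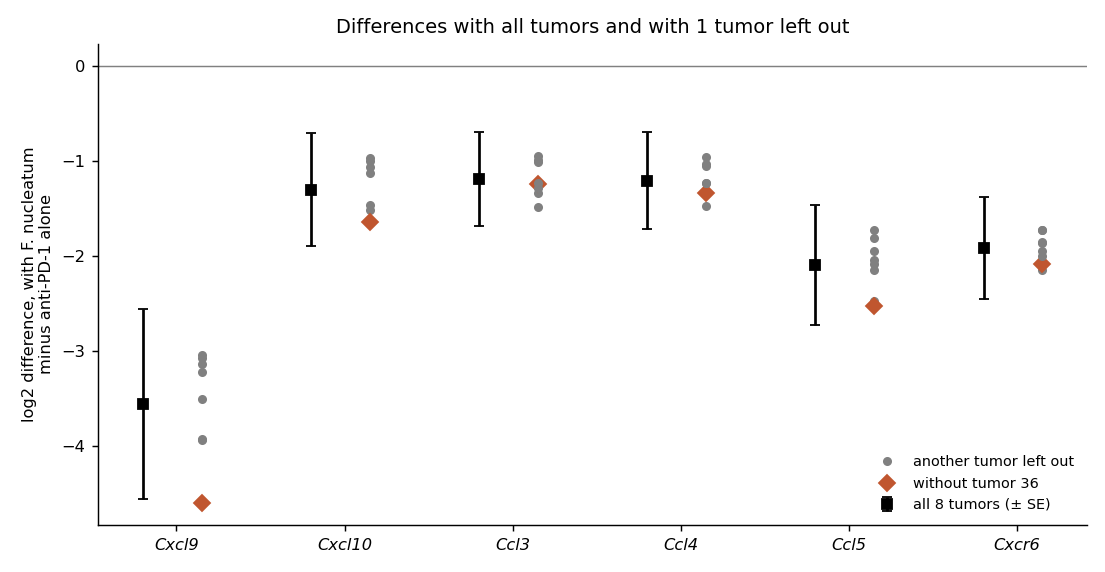
Log2 difference of each member, F. nucleatum minus anti-PD-1 alone (vertical axis), from limma with all 8 tumors (black squares, bars for SE) and with each tumor left out in turn (grey points; the orange diamond leaves out tumor 36). Every value is below 0, and leaving out tumor 36 takes Cxcl9 from -3.55 to -4.60.

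Interferon-induced and lymphocyte-made chemokines were compared as classes within each tumor, and no test was made since the members were chosen with results known. The mean log2 normalized count of Cxcl9 and Cxcl10 was 10.73 ± 1.13 in the anti-PD-1 tumors and 8.31 ± 1.40 in the F. nucleatum tumors (SD, n = 4 each). That of Ccl3, Ccl4 and Ccl5 was 7.94 ± 0.55 and 6.44 ± 0.55. The lymphocyte-made class did not overlap between groups, at 7.47 to 8.72 against 5.72 to 7.05, whereas the interferon-induced class overlapped through tumor 36, at 10.38. On log2 normalized counts the interferon-induced mean exceeded the lymphocyte-made mean by 2.19, 3.10, 4.12 and 1.76 in tumors 11, 17, 18 and 19. The excess was 3.34, 1.28, 1.23 and 1.60 in tumors 36, 37, 39 and 40. Normalized counts are not scaled to transcript length, so this excess does not rank the classes by transcript level within a tumor. On log2 of FPKM plus 0.1 the mean excess was smaller in both groups, and its group difference was -0.88. On normalized counts the group difference of the excess, -0.93, was smaller than its SD within groups, 1.02. With Cxcl10 alone as the interferon-induced class it turned to 0.19, and with Ccl5 alone as the lymphocyte-made class it was -0.34. Within the lymphocyte-made class the log2 difference of Ccl5 (-2.09) was larger than those of Ccl3 (-1.19) and Ccl4 (-1.21), and the log2 ratio of Ccl5 to Ccl4 overlapped between groups, at -1.23 to 1.25 and -1.06 to 0.41.

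Levels per transcript length gave the order of the members. With anti-PD-1 alone Cxcl9 led at 15.96 ± 12.18 FPKM, followed by Cxcl10 at 10.01 ± 5.87, Ccl3 at 8.91 ± 4.47, Ccl4 at 4.39 ± 2.10, Ccl5 at 4.08 ± 2.13 and Cxcr6 at 0.648 ± 0.223 (SD, n = 4). Ccl3 exceeded Ccl4, and Ccl5 exceeded Cxcr6, in 4 of 4 tumors, while the other neighbours in this order traded places between tumors. With F. nucleatum Cxcl10 led at 4.06 ± 2.55 FPKM, followed by Ccl3 at 3.58 ± 0.87, Cxcl9 at 2.74 ± 4.41, Ccl4 at 1.77 ± 0.48, Ccl5 at 1.0005 ± 0.769 and Cxcr6 at 0.162 ± 0.056. Cxcl9 had a higher mean than Ccl4 but exceeded it in 1 of 4 tumors, tumor 36. Its FPKM there was 9.34, against 0.340, 0.931 and 0.354 in tumors 37, 39 and 40.

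The 5 ligands summed to 23.8, 71.5, 48.8 and 29.3 FPKM in tumors 11, 17, 18 and 19 and to 25.1, 11.5, 9.52 and 6.49 FPKM in tumors 36, 37, 39 and 40. Tumor 36 lay between anti-PD-1 tumors 11 and 19, and the other 3 F. nucleatum tumors lay below all of the anti-PD-1 tumors. Cxcl9 made up 18.9% to 48.5% of the sum with anti-PD-1 alone. It made up 37.2% in tumor 36 and 2.96%, 9.78% and 5.45% in tumors 37, 39 and 40. Ccl3 made up 11.8% to 41.7% and 15.9% to 44.7% in the respective groups. The ligand with the highest FPKM was Cxcl9 in tumors 17, 18 and 36, Cxcl10 in tumors 11, 37 and 40, and Ccl3 in tumors 19 and 39.

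**Figure D4:**
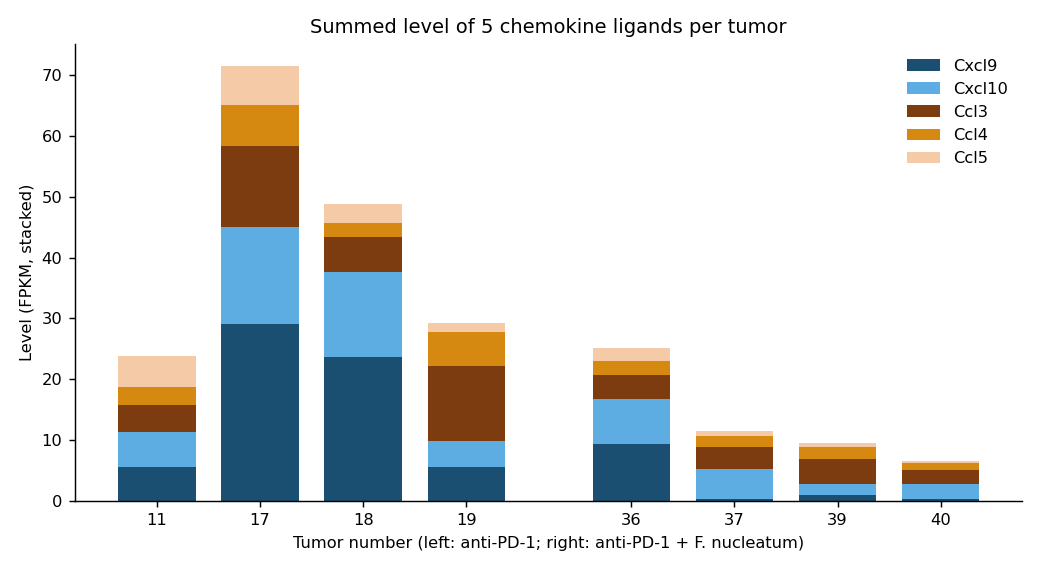
Stacked FPKM of the 5 ligands (vertical axis, from 0) in each tumor (horizontal axis, anti-PD-1 at left and anti-PD-1 with F. nucleatum at right). The dark blue Cxcl9 segment is 29.0 FPKM in tumor 17 and under 1 FPKM in tumors 37, 39 and 40.

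T cell and cytotoxic lymphocyte markers also had lower group means with F. nucleatum, and limma called none of them with all tumors. Cd3d, Cd3g, Cd8a, Cd8b1, Lck and Cd2 were the 6 of 8 T cell markers that the table held, and each had a lower mean with F. nucleatum. Their summed level ran from 2.09 to 5.01 FPKM in the anti-PD-1 tumors and from 0.408 to 1.54 FPKM in the F. nucleatum tumors. Of 6 cytotoxic markers 4 were in the table (Nkg7, Gzma, Gzmb and Klrk1), with sums of 5.83 to 13.3 and 0.293 to 3.63 FPKM. Tumor 40, the lowest of all in both sums, had 0 reads of Cd3d, Cd8b1 and Gzma. Itgax, the 1 of 6 dendritic cell markers listed, had 1.94 to 7.20 and 0.840 to 2.10 FPKM. Values of the macrophage, monocyte and B cell markers were not analysed here. In bulk RNA fewer cells of a type and less RNA per cell cannot be told apart, and the part of these markers in the members' differences was not tested.

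Divided by the summed T cell markers of the same tumor, Ccl5 and Cxcr6 had group means that differed by less than the spread between tumors. The ratio for Ccl5 was 1.14 ± 0.28 in the anti-PD-1 tumors and 0.994 ± 0.305 in the F. nucleatum tumors, and that for Cxcr6 was 0.1999 ± 0.0752 and 0.211 ± 0.148 (SD, n = 4 each, FPKM per FPKM). Cxcr6 reached 0.432 in tumor 40, where the divisor was smallest. The ratio for Ccl3 was 2.99 ± 2.06 and 4.39 ± 1.77, that for Ccl4 1.41 ± 0.88 and 2.11 ± 0.70, and that for Cxcl10 3.16 ± 2.16 and 4.28 ± 1.34. These 3 means were higher with F. nucleatum, within the spread of the tumors. The ratio for Cxcl9 was 5.02 ± 4.09 and 2.14 ± 2.65, lower with F. nucleatum as was the mean for Ccl5, and tumor 36 reached 6.06. Every one of the 6 ratios overlapped between the groups. The divisor holds genes that were listed because they differed between these same groups, so the ratios are descriptions.

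**Figure D5:**
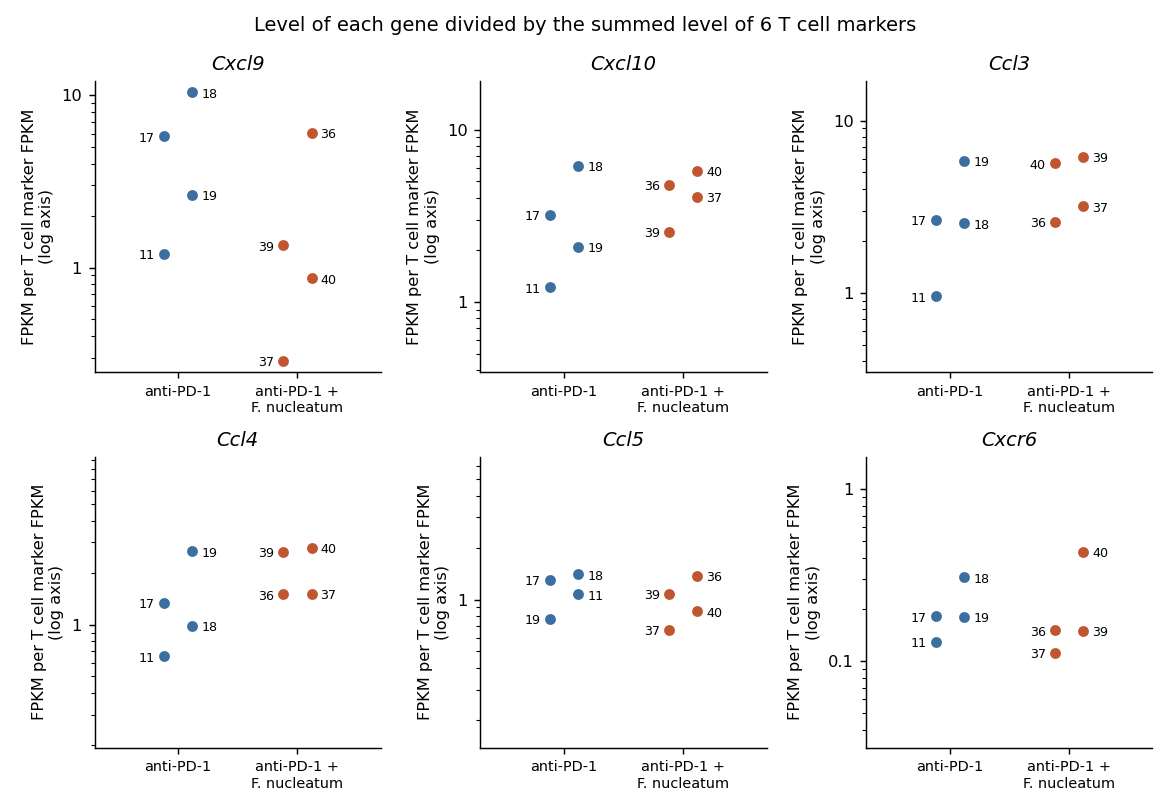
FPKM of each member divided by the summed FPKM of 6 T cell markers in the same tumor (vertical log axes, each spanning the same fold range), 1 labelled point per tumor in the 2 groups. The groups overlap in every panel, and for Cxcl9 tumor 37 is the lowest at 0.287.

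Targets of interferon-gamma were followed beside the interferon-induced pair. The table held 19 of 31 such genes, each with a lower mean. Their median log2 difference was -1.91, and that of all 752 genes was 1.18. The latter is not a typical shift. No listed gene had an absolute difference under 1.001, and 399 were higher, so the median falls among the smaller rises. By limma 0 of the 19 passed after adjustment. Gbp2, a guanylate-binding GTPase, had means of 44.4 ± 36.1 and 9.63 ± 9.32 FPKM without and with the bacterium, and Igtp, an interferon-gamma induced GTPase, had 14.1 ± 7.9 and 4.99 ± 3.58 (SD, n = 4 each). Relative to the sum of the 19, Cxcl9 stood at 0.0996 to 0.168 in the anti-PD-1 tumors and at 0.0166 to 0.121 in the F. nucleatum tumors. Cxcl10 stood at 0.0676 to 0.1003 and 0.0936 to 0.235. Cxcl9 was thus lower and Cxcl10 higher on average against the same targets, with overlap of the tumors in both cases. The Cxcl10 value of 0.235 was that of tumor 37, and tumors 36, 39 and 40 had 0.0951, 0.0936 and 0.114. These targets too were listed because they differed between these same groups, so the ratios are descriptions.

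Lymphocyte lists gave like counts. The table held 12 of 24 T cell genes (median log2 difference -1.93) and 12 of 23 NK and cytotoxic genes (-2.59), and each had a lower mean. Limma called none of them. Trac, the constant chain of the alpha T cell receptor, had 1.68 ± 1.11 and 0.521 ± 0.381 FPKM, and Lck, a kinase of T cell receptor signaling, had 0.737 ± 0.204 and 0.311 ± 0.0996 FPKM. Gzmb, a cytotoxic granule protease, had 3.39 ± 2.06 and 0.792 ± 0.528 FPKM. Gzmg, another granzyme, had 4.03 ± 7.55 and 0.147 ± 0.187 FPKM, its anti-PD-1 mean carried by 1 tumor at 15.4 FPKM. Eomes, a transcription factor of cytotoxic lymphocytes and the 1 gene present of 23 receptors, inducers and partners of the members, had 0.152 ± 0.021 and 0.0373 ± 0.0542 FPKM.

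The wider chemokine system was sparsely listed. Of 62 chemokines and receptors, 7 were in the table, the 6 members and Cxcl11, and the deposited KEGG term for chemokine signaling held the same 7. Values of the other 55 were not analysed here, Cxcr3 and Cxcl16 among them. Cxcl11, the remaining Cxcr3 ligand, lies 10.7 kb from Cxcl10 on chromosome 5 (92359544 to 92365485) and is annotated in GENCODE as a polymorphic pseudogene. Its normalized counts were 4.78, 68.3, 45.7 and 15.0 in tumors 11, 17, 18 and 19. In tumors 36 and 39 they were 19.3 and 5.64, and tumors 37 and 40 had 0 reads; a floor of 3 reads, which covers counting error only, equals normalized counts of 3.48 and 3.17 there. Tumors 17, 18 and 36 were thus high for all 3 neighbouring Cxcl genes, each within its group, while tumor 37 had Cxcl10 without detected Cxcl11. The log2 difference was -2.78 ± 1.16 (SE, adjusted p = 0.107 by limma, exact permutation p = 0.143).

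The genes most like each member were found from values centred within each group, so that the group difference did not enter the score. It did set the candidates, since only genes listed for differing between the groups could be found. Likeness was the root mean square difference over the 8 tumors, on the log2 scale, among 204 genes with a mean log2 value of at least 5. For Cxcl9 the 3 nearest were Batf2 (0.43), Gbp5 (0.45) and Gbp4 (0.57), where the median over 203 genes was 1.30. For Cxcl10 they were Ifi44 (0.30), Igtp (0.32) and H2-Eb1 (0.33), with a median of 0.80. Cxcl10 itself stood 59th for Cxcl9, at 1.15, behind Ccl5 at 1.11. Ccl3 and Ccl4 were each other's nearest gene, at 0.24, with medians of 0.78 and 0.77. The next for Ccl3 were the red blood cell genes Alas2 (0.29) and Hba-a1 (0.34), and for Ccl4 Ifit1bl1 (0.34) and Alas2 (0.37). Ccl5 stood farther from both, at 0.92 from Ccl3 and 0.79 from Ccl4, than from Cxcl10, at 0.65. For Ccl5 the nearest were Cd83 (0.29), Ms4a4b (0.34) and Bcl2a1d (0.42), with a median of 0.83, and for Cxcr6 they were Tap1 (0.25), Cish (0.26) and H2-DMb1 (0.27), with a median of 0.70. A gene with no spread within the groups would score 1.56 for Cxcl9, 0.81 for Cxcl10, 0.54 for Ccl3 and 0.51 for Ccl4. It would score 0.80 for Ccl5 and 0.43 for Cxcr6. For Ccl3, Ccl4, Ccl5 and Cxcr6 this is below the median, so a score below the median alone does not show likeness. Hba-a1 and Bcl2a1d have near-identical paralogs, so their counts are uncertain.

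Depth and tissue content bear on these values. Recovered reads in the listed genes were 97511 to 308139 per tumor, and 1 read equals a normalized count of 0.789 to 1.55. Summed FPKM of 5 skeletal muscle markers was 315 in tumor 36 and 1.23 to 15.7 in the other 7 tumors, and that of 4 keratinocyte markers was 197 in tumor 37 and 0.310 to 0.599 in the others. All 4 globin genes had higher means with F. nucleatum. The part of this tissue in the members' values was not tested. Of 4 epithelial markers Epcam was in the table and had no reads in any of the 4 anti-PD-1 tumors, so the carcinoma origin could not be checked by it, and values of Krt8, Krt18 and Cdh1 were not analysed here.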

How the data were processed

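RNA of the 8 tumors was isolated with TRIzol and sequenced from stranded TruSeq libraries, per the labels' protocols. Tools named in the submitters' processing notes, without roles, are DESeq 1.22.1, Cuffnorm, STAR 2.5 and FastQC, and the build is mm10. The authors deposited 1 table with log2 values, FPKM values, a p-value and an FDR per gene. The test behind that p-value, the read counter and the use of strand in counting are not given in the sources used here. From the values, the deposited log2 columns are log2 of a normalized count plus 1, since 100% of values above 0 were whole multiples of 1 step per tumor at a tolerance of 0.1 read. Reads were recovered as those multiples. Library totals are unknown.

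Groups followed the labels, with 4 tumors each. The labels do not say that tumors came from separate mice, so p-values measure the spread between tumors. The main fit was limma 3.58.1 (R 4.3.3; trended eBayes) on the deposited log2 values of all 752 genes, with Benjamini-Hochberg adjustment over the table and a threshold of 0.05. The adjustment covers only genes selected on this same comparison, so adjusted p-values are not error rates. A two-sided exact permutation test was run beside the limma fit. The fit was also run on simulated normal values with a common spread for all genes and no selection of genes. That setting differs from these data, so it does not show how the fit performs on them. Members, gene lists, motifs and tests were chosen with earlier results of these data known. Named genes were the members, other listed chemokine genes, the 2 genes of highest mean FPKM in each of 4 lists, and the 3 genes most like each member. Positions are from GENCODE M21 on GRCm38, the assembly of mm10, and sequences from RefSeq GRCm38.p6. Other steps used Python 3.11.15, scipy 1.17.1, pandas 2.3.3, matplotlib 3.10.9 and numpy 2.4.6. Alternatives were other scales and pseudocounts, a filter on low counts, median centring, limma variants, voom on recovered reads, the permutation test, an adjusted p under 0.01, other class definitions, and tumors left out. The counts of members without overlap between groups were added after seeing the data.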

Additional observations from a re-analysis of the deposited data

Results flagged for a closer look

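The mean log2 normalized count of Cxcl9 and Cxcl10 in tumor 36 was 10.38, far from the other 3 F. nucleatum tumors, which lay between 7.32 and 7.78. Sums of marker genes also had 1 F. nucleatum tumor far from the rest of its group. These were skeletal muscle in tumor 36 (314.5 FPKM), keratinocyte in tumor 37 (197.3 FPKM) and the epithelial marker Epcam in tumor 37 (1.30 FPKM). In FPKM, Cxcl9 in tumor 36 (9.34) also lay far from the other 3 F. nucleatum tumors, which had 0.340 to 0.931. In all, 5 of 54 groups of 4 values had such a sample. The rule flags about 1 in 20 groups of independent, normally distributed values. These groups share tumors and genes, and several hold FPKM values not on a log scale, so 5 of 54 cannot be set against that rate. On the log2 scale no single member had one in either group.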

How the results depend on the processing

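No paired analysis was possible because the labels give the groups no shared replicate numbers. All 6 members stayed lower under each of the 18 alternatives fitted, Cxcl9 from -4.60 to -2.45, Cxcl10 from -2.06 to -0.97, Ccl3 from -1.80 to -0.95, Ccl4 from -1.82 to -0.89, Ccl5 from -2.72 to -1.31 and Cxcr6 from -2.53 to -0.50, all of them log2 differences. The filter on low counts, limma without a trend and the permutation test leave the difference itself unchanged, and the genes were listed for differing between these groups. The number of members with an adjusted p under 0.05 by limma was 0 with all tumors. It was 4 (Cxcl9, Cxcl10, Ccl5 and Cxcr6) with tumors centred to a common median, where 125 genes of the table passed, and the same 4 with array weights, where 238 passed. Centring lowers every difference by 0.61 and takes the median of all genes from 1.18 to 0.57. It was 3 (Cxcl9, Ccl5 and Cxcr6) without tumors 36 and 37, where 126 genes passed. With 1 tumor left out in turn it ranged from 0 to 3, the 3 without tumor 36, where 140 genes of the table passed, 33 without tumor 37, and 2 each without tumors 18 and 40. It was 0 on both FPKM scales, with a pseudocount of 5, with the filter, without a trend, with voom, in the permutation test and at an adjusted p under 0.01. The number of members without overlap, 3 with all tumors, was 5 with centring, 6 without tumors 36 and 37, and 3 to 5 with 1 tumor left out, the 5 without tumor 36. The share of all listed genes without overlap in this direction was 12.4% with all tumors, 26.3% with centring and 28.2% without tumors 36 and 37. With 1 tumor left out it was 13.6% to 26.2%. Of all listed genes, 399 had higher means with all tumors. In FPKM 2 members and 11.3% of the listed genes did not overlap. The class difference of -0.93 ranged from -1.42 to -0.49 with 1 tumor left out, the former without tumor 36 and the latter without tumor 18, turned to 0.19 with Cxcl10 alone and was -0.34 with Ccl5 alone. Low reads limit Cxcr6, Cxcl11 and Ccl5 most. The causes of these changes were not tested.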
